A study of Homo sapiens with 6 samples.

Results

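KKU-100, a cell line from a poorly differentiated cholangiocarcinoma (cancer of the bile duct), was exposed to a low dose of the multikinase inhibitor regorafenib, and its transcriptome was compared with that of the same line under solvent. The comparison uses 2 of the 6 expression arrays of the series, the array labelled regorafenib 1 μM and the array labelled solvent control, at 1 array a side. The other arrays are KKU-100 at the high dose, labelled 10 μM, and the corresponding low-dose, high-dose and solvent arrays of HuccT1, another bile duct carcinoma line. The labels state that the cells were stably transduced and kept in puromycin, for all 6 arrays alike and without naming a construct, while the published account of the arrays gives other doses and an exposure of a few hours. The arrays are called low dose, high dose and solvent here. Each value is the signal intensity of a probe set, a group of short probes against a transcript, and a fold change is given as the difference of log2 signals, low dose minus solvent. Because there is 1 array per condition, no difference has a replicate check and none carries a p-value, and the number of arrays limits the precision. On arrays of bulk RNA, a change in the share of cells that express a gene and a change in RNA per cell cannot be told apart.

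Of 54613 probe sets, 27307 had a mean log2 signal over the 3 KKU-100 arrays at or above the median, which corresponds to a signal of 28.9, and 12729 of the 19775 genes that have a probe set annotated to them alone were represented among them. A gene stands for its brightest probe set, and it is said to rise or fall where its signal changed by over 1.5-fold, a log2 fold change beyond 0.58 in size. The probe sets just inside the level filter were those of PSMB8-AS1, with signals of 27.0 at the low dose and 33.0 in solvent, CASR (26.5 and 32.0) and PPP1R3F (28.9 and 28.6). Just outside it lay BIN3-IT1 (24.8 at the low dose and 38.4 in solvent), OTOF (28.7 and 30.3) and PLTP (30.0 and 26.5).

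Regorafenib blocks receptor tyrosine kinases of the VEGF, PDGF and FGF families together with KIT, RET and the RAF kinases. RAF kinases pass signals from RAS to the MAP kinase ERK, which within minutes switches on immediate early genes such as EGR1 and FOS and, somewhat later, phosphatases and Sprouty proteins that dampen the same pathway. The Hippo pathway controls the coactivators YAP1 and TAZ, which work through TEAD factors on targets such as CCN2, and much of the study that produced the arrays concerned YAP1.

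As deposited, the arrays of the series were close in scale. Their medians lay between 28.8 and 29.3, their upper quartiles between 148 and 156 and their highest signals between 19904 and 20640. How the arrays were scaled is not given, so this closeness cannot be read as array quality. The ratio of the 3' to the 5' control probe set of GAPDH was between 1.03 and 1.06. For ACTB this ratio was 1.23 at the low dose and 1.27 in solvent, and 1.68 at the high dose. The 18 hybridization control probe sets differed between the low-dose and the solvent array by a median log2 of −0.05 (range −0.11 to 0.07), and the 5' probe set of 18S ribosomal RNA read 770 at the low dose and 1027 in solvent. None of 12 housekeeping genes moved past 1.5-fold, with a median of 0.02. Of 12 biliary epithelial markers 7 passed the level filter, among them KRT18 (signal 12615 at the low dose and 9747 in solvent), KRT8 (8852 and 7501) and SPP1, osteopontin (10434 and 10682), whereas KRT19 and EPCAM lay below it. Of 21 markers of other cell types 9 passed the filter and 0 moved past 1.5-fold, between −0.26 and 0.53. The 9 included COL3A1 (779 at the low dose and 538 in solvent), COL1A1, HBB, PECAM1, CD3E, TTR and CYP3A4, while PTPRC, VWF, ALB and APOA1 were among the 12 that did not pass. Their part in the results was not tested.

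The low dose moved many transcripts, and the largest changes were falls. Among the probe sets past the filter, 2297 (8.41%) were higher and 2472 (9.05%) lower by over 1.5-fold, and 510 (1.87%) and 861 (3.15%) by over 2-fold. Taken by gene, 1253 of 12729 rose (9.84%) and 949 fell (7.46%), and past 2-fold 299 rose (2.35%) and 351 fell (2.76%). The balance tipped with size. Past 4-fold, 6 genes rose and 51 fell, and past 8-fold 0 rose and 14 fell. The 6 genes that fell by over 16-fold were EGR1, CCN2, FOS, DUSP6, ARRDC4 and MAFF. Of the 51 genes that fell past 4-fold, 14 had a low-dose signal below the median of that array, so that their fold changes rest on dim signals. Other probe sets differed in balance. Among the dimmer probe sets of genes already counted, 7.64% were higher and 10.5% lower, so the balance by gene depends in part on taking the brightest. Among probe sets with no gene symbol 5.65% were higher and 11.0% lower.

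**Figure D1:**
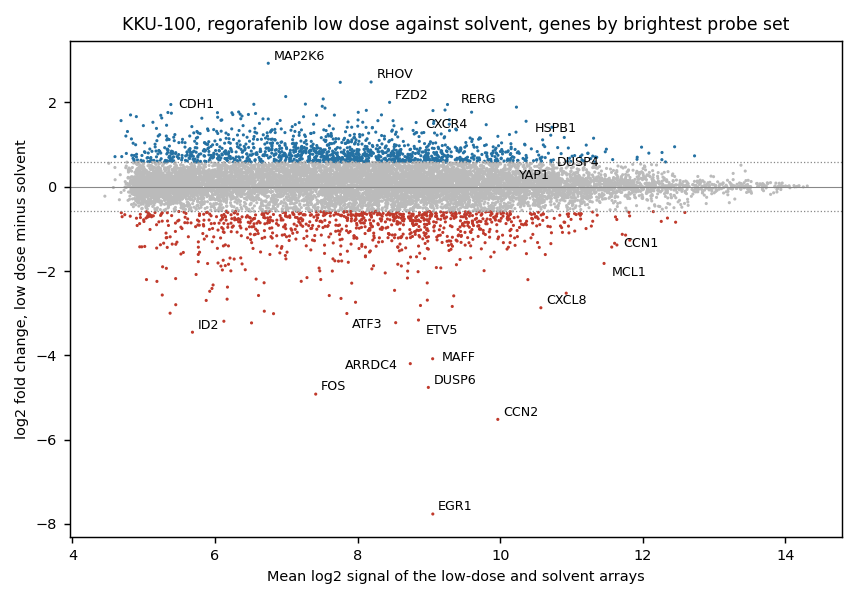
Log2 fold change of each gene (low dose minus solvent, vertical axis) against the mean log2 signal of both arrays (horizontal axis) in KKU-100, 1 point per gene by its brightest probe set, with 1253 genes higher (blue) and 949 lower (red) past 1.5-fold (dotted lines). The lower side reaches −7.76 (EGR1) and the upper side 2.93 (MAP2K6).

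Immediate early genes supplied EGR1, FOS and MAFF among the 6 falls past 16-fold. EGR1, a zinc finger transcription factor switched on by ERK, had a signal of 36.1 at the low dose, against 7841 in solvent, a 217-fold fall. Its other probe sets read 27.2 and 15.7 at the low dose, against 2713 and 1769 in solvent, so that all 3 fell, by log2 fold changes between −7.76 and −6.64. On the high-dose array EGR1 was at 369, also far below the solvent array, which is the same single array for both doses. FOS, a subunit of the transcription factor AP-1, had 31.0 at the low dose, against 937 in solvent (−4.92), and 29.6 at the high dose. Both treated signals lie near the median of their arrays, where FOS is hardly brighter than a typical dim probe set. MAFF, a small leucine zipper factor, read 129 at the low dose and 2184 in solvent (−4.08), and its other probe set fell by 2.38 on the log2 scale.

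The rest of the list mostly followed. Of 20 immediate early genes past the filter, 15 fell (75%) and 1 rose (5.00%), where 7.46% of all genes fell and 9.84% rose, with a median log2 fold change of −1.48, against 0.06 over all genes. SERTAD1, a transcriptional coregulator, was at 811 at the low dose and 4668 in solvent (−2.53). FOSB, a relative of FOS, was at 26.9 and 143 (−2.41), the low-dose signal being below the median of that array. JUN, the partner of FOS in AP-1, was at 1844 at the low dose and 4973 in solvent (−1.43), with 4 probe sets between −2.26 and −1.19, and JUNB was at −1.52. EGR4, a relative of EGR1, CSRNP1, IER2, IER5 and ZFP36, the last an RNA-binding protein that destabilizes messenger RNAs, fell by between 1.03 and 1.87 on the log2 scale. EGR4 has a further probe set below the filter that read 6.13 at the low dose and 467 in solvent. The exceptions were FOSL2, which rose (920 at the low dose and 491 in solvent, 0.91), and NR4A1, NR4A2, SRF and JUND, which stayed within 1.5-fold (−0.38, 0.18, −0.24 and 0.28).

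Among genes that ERK signalling induces, some of which restrain it, 12 of 17 past the filter fell (70.6%, where 7.46% of all genes fell) and 0 rose, with a median of −0.93. Of the 10 DUSP, SPRY and SPRED genes among them, which encode the restraining phosphatases, Sproutys and Spreds, 6 fell and 4 stayed within 1.5-fold. DUSP6, the phosphatase that inactivates ERK in the cytoplasm, had a signal of 97.8 at the low dose, against 2651 in solvent (−4.76), with all 3 probe sets between −4.76 and −4.24. ETV5, an ETS factor downstream of ERK, had 155 at the low dose and 1384 in solvent (−3.16), and its 4 probe sets fell by at least 2.37 on the log2 scale. SPRY4, a Sprouty inhibitor of receptor signalling, had 97.0 and 649 (−2.74), and SPRED1, which hinders the activation of RAF, had 229 and 927 (−2.02). FOSL1, a FOS relative that ERK stabilizes, fell to 88.7 at the low dose, against 354 in solvent. SPRY2 (−1.06), DUSP5, a nuclear phosphatase of ERK (−0.93), PHLDA1 (−0.90) and ETV4 (−0.76) changed less. DUSP4, another nuclear MAP kinase phosphatase, did not follow. It had 1947 at the low dose and 1458 in solvent (0.42, with 3 probe sets between 0.31 and 0.52), and DUSP1 was also within 1.5-fold, at 4954 and 5302 (−0.10), as were SPRY1 (−0.05) and SPRED3 (0.06). At the high dose DUSP4 read 971, and in HuccT1 its log2 fold change at the low dose was −1.35.

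**Figure D2:**
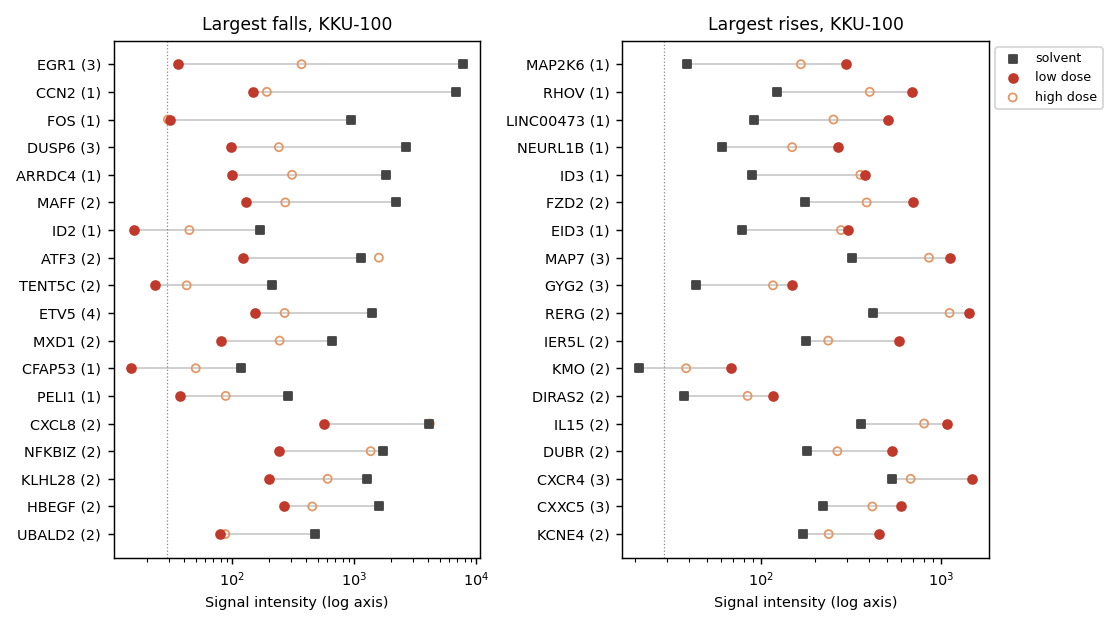
Signal intensity (logarithmic axis) of the 18 largest falls (left) and 18 largest rises (right) named by the rule, on the KKU-100 solvent (grey squares), low-dose (red) and high-dose (open circles) arrays, with the number of probe sets past the level filter in brackets and the level filter as a dotted line. EGR1 lies at 36.1 at the low dose and 7841 in solvent, and among the falls CXCL8, ATF3 and NFKBIZ have a high-dose signal within 1.5-fold of solvent.

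The promoters of 4 genes that fell are shown because each holds a match to 1 of the motifs searched. Whether these motifs had a part in the falls was not tested. Promoter sequences of RefSeq (build GRCh38.p14) matched 10303 of the 12729 genes, and the 250 bases before the start are printed 5′ to 3′ along the gene. Searched on both strands were the TEAD motif GGAATG, the cAMP response element TGACGTCA, the AP-1 motif TGANTCA and the CArG box, the site of the serum response factor, and matches stand in capitals. EGR1 (chr5:138465229-138465478 on the plus strand) has 2 CArG boxes, CCN2 (chr6:131951373-131951622 on the minus strand) 3 TEAD motifs, MAFF (chr22:38201744-38201993 on the plus strand) 1 cAMP response element and CXCL8 (chr4:73740319-73740568 on the plus strand), which encodes interleukin 8, 1 AP-1 motif.
EGR1: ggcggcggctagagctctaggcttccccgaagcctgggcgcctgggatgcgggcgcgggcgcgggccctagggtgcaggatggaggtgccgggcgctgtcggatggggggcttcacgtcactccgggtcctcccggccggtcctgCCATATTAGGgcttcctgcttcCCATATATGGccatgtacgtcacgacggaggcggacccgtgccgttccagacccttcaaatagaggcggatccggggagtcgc
CCN2: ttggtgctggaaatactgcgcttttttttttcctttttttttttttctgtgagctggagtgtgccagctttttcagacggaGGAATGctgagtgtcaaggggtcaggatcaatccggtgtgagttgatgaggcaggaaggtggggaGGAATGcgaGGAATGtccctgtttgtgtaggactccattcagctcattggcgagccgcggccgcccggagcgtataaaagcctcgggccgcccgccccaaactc
MAFF: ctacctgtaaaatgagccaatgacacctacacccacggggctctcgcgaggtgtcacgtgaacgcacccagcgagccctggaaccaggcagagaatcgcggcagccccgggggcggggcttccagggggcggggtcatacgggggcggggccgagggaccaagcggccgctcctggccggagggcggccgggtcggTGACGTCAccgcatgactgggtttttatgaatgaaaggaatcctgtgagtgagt
CXCL8: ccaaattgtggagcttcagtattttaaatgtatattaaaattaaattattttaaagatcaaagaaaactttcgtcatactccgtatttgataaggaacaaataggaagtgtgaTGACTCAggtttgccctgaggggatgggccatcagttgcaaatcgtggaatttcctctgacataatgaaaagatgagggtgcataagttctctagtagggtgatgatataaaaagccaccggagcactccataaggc
Few of the genes that moved held such matches. The TEAD motif lay in 9.31% of the 795 promoters of genes that fell, 8.85% of the 1028 of genes that rose and 9.44% of all 10303. The CArG box lay in 1.13%, 0.778% and 0.980% of them, and the AP-1 motif in 4.65%, 2.63% and 4.17%. The cAMP response element lay in 4.40% of the promoters of genes that fell, 2.53% of those of genes that rose and 2.85% of all. For genes on which all of 2 or more probe sets agreed past 1.5-fold, 182 that fell and 148 that rose had promoters. The TEAD motif lay in 12.1% and 6.76% of these, the cAMP response element in 5.49% (10 promoters) and 1.35% (2). The AP-1 motif lay in 6.04% and 4.05%, and the CArG box in 1.65% and 0%. These counts are small and the differences were not tested. Of the 11 windows searched for single genes, 6 held no match, those of FOS, DUSP6, ATF3, HBEGF, ID2 and FOSB, which says only that these letters are not in them. ARRDC4 held 1 AP-1 motif, and the 4 printed were chosen because they hold matches.

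Among targets of YAP1 and TAZ, CCN2 stood far from the rest. CCN2, the secreted matrix protein also known as CTGF, read 148 at the low dose, against 6777 in solvent (−5.52), and 192 at the high dose. It has 1 probe set, so this value could not be checked on another, and both doses are set against the same solvent array. CCN1, its close relative, read 1956 at the low dose and 4957 in solvent (−1.34), and its other probe set fell by 1.64 on the log2 scale. Of 21 targets past the filter 4 fell (19.0%, against 7.46% of all genes) and 2 rose (9.52%, against 9.84%), with a median of −0.05, against 0.06 over all genes. AXL (−0.17), AMOTL2 (−0.15), ANKRD1 (0.33) and F3 (0.42), all widely used as YAP1 targets, stayed within 1.5-fold, and FJX1 rose by 1.24. LATS2 was at −0.94 by its brightest probe set, while the highest of its 3 probe sets was at 0.17.

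YAP1 and TAZ themselves stayed within 1.5-fold on their brightest probe sets. YAP1 had 1205 at the low dose and 1118 in solvent (0.11), with its 3 probe sets between −0.47 and 0.11, and TAF4, a subunit of the general factor TFIID, had 278 and 335 (−0.27). WWTR1, which encodes TAZ, had 1793 and 2018 (−0.17), but its probe sets disagreed in size, with the lowest at −1.03 (218 at the low dose and 445 in solvent). Of 16 Hippo components 4 fell (25%, against 7.46% of all genes) and 2 rose (12.5%, near the 9.84% of all genes), with a median of −0.27. The adaptor SAV1 (−0.90, but 0.17 on the highest of its 5 probe sets) and the kinases TAOK1 (−0.64), STK3 (−0.63) and STK4 (−0.62) were the falls. WWC1, which encodes the scaffold KIBRA, rose with 761 at the low dose and 372 in solvent (1.03), its 5 probe sets between 0.14 and 1.11.

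Of 12 EGF family ligands, receptors and regulators past the filter 4 fell (33.3%, against 7.46% of all genes) and 1 rose (8.33%, against 9.84%). Of the ligands, HBEGF had 266 at the low dose and 1599 in solvent (−2.59, the other probe set −2.61), EREG, epiregulin, had 473 and 1249 (−1.40), and TGFA had 127 and 243 (−0.94), although 1 of its 3 probe sets was at 0.00. The ligands BTC, betacellulin (−0.38), and EGF (−0.21) stayed within 1.5-fold. ERRFI1, a feedback inhibitor of the receptor, fell by 0.93 on the log2 scale. ERBB3, a receptor of neuregulins with little kinase activity, rose, with 138 at the low dose and 42.0 in solvent (1.71), whereas EGFR was at 0.20 and ERBB2 at 0.45. Among the kinases that regorafenib targets, 10 of 20 passed the filter. DDR2 (32.9 at the low dose and 65.5 in solvent, −0.99) and EPHA2 (966 and 1770, −0.87) fell, and ABL1 rose (916 and 478, 0.94). FGFR1, at 325 and 449, was within 1.5-fold.

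Ephrins and extracellular proteolysis also changed. EFNB2, a membrane ligand of Eph receptors, had 109 at the low dose and 534 in solvent (−2.29), and EFNA2 had 25.7 and 144 (−2.48), dim at the low dose, while EFNA1 rose with 1126 and 535 (1.07). Over the 11 ephrins and Eph receptors, 3 rose and 3 fell (27.3% each, where 9.84% of all genes rose and 7.46% fell). The plasminogen activators PLAT (2269 at the low dose and 4961 in solvent, −1.13) and PLAU (202 and 412, −1.03) fell together with PLAUR, the receptor of urokinase (884 and 1727, −0.97), although 1 of the 3 probe sets of PLAUR was at −0.13. These were the 3 that fell among 9 genes of that list (33.3%, against 7.46% of all genes), and 0 rose. ITGA2, the collagen-binding integrin subunit, fell with 352 and 1270 (−1.85), 1 of 2 falls among 15 integrins and laminins (13.3%).

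Markers of the epithelial to mesenchymal transition, on which the study worked, gave single changes and no common shift. CDH1, E-cadherin, rose with 76.7 at the low dose and 22.9 in solvent (1.75), a solvent signal below the median of its array, and its other probe set, below the filter, was at −0.29. Of 12 epithelial genes 3 rose (25%, against 9.84% of all genes) and 1 fell (8.33%, against 7.46%). EHF, an epithelial ETS factor, was at 1259 and 567 (1.15), desmoplakin, DSP, at 0.61, and TJP1 at −0.65. VIM, vimentin, was at 576 and 493 (0.22), and 0 of 8 mesenchymal genes past the filter moved past 1.5-fold. SNAI2 did not pass the level filter and gave no call. KRT80 rose with 139 at the low dose and 41.0 in solvent (1.75), the only keratin of 6 to pass 1.5-fold.

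**Figure D3:**
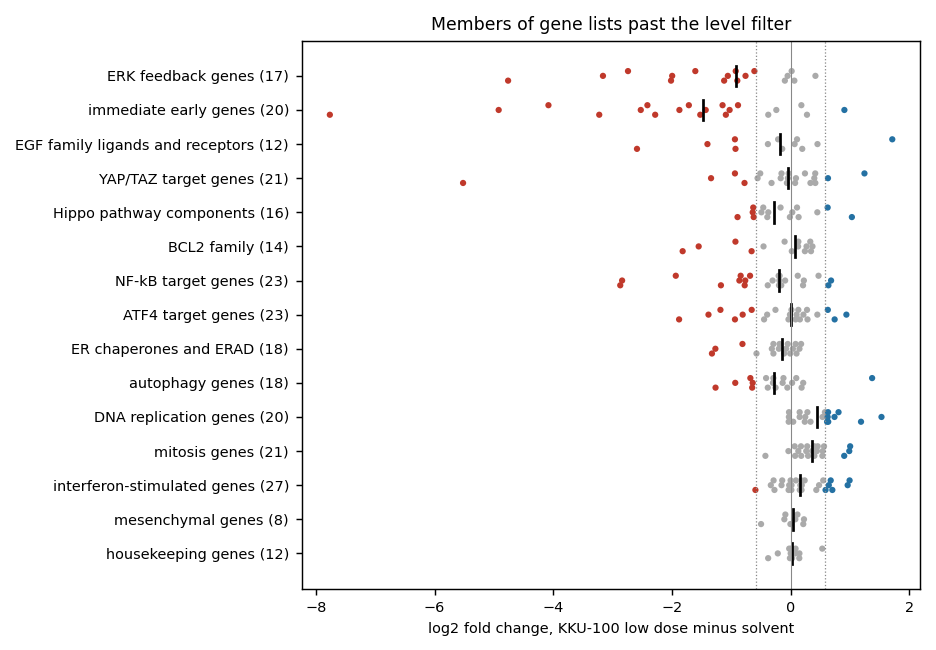
Log2 fold change (low dose minus solvent, horizontal axis) of each member past the level filter in 15 gene lists in KKU-100, with the number of members in brackets, black bars at the median, dotted lines at 1.5-fold, and members higher in blue and lower in red. Immediate early genes have a median of −1.48 with 15 of 20 lower, and DNA replication genes one of 0.44 with 8 of 20 higher.

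A group of inflammatory and stress genes fell at the low dose and was within 1.5-fold of solvent or above it at the high dose. ATF3, a stress-induced factor, had 121 at the low dose and 1134 in solvent (−3.23), and 1588 at the high dose. CXCL8 had 562 at the low dose and 4114 in solvent (−2.87), and 4159 at the high dose. Its other probe set read 189 at the low dose and 1660 in solvent. NFKBIZ, a nuclear IkB protein, had 240 and 1719 (−2.84, the other probe set −2.85), and 1361 at the high dose. PTGS2, cyclooxygenase 2, had 20.4 at the low dose and 78.0 in solvent (−1.94), the low-dose signal being below the median of that array, and 83.1 at the high dose. For these genes the solvent and high-dose arrays lie near each other and the low-dose array lies apart. Of 23 NF-kB targets 9 fell (39.1%, against 7.46% of all genes) and 2 rose (8.70%, against 9.84%), with a median of −0.20. Against the same solvent array, the high dose had 13 higher and 0 lower, with a median of 0.59 (over all genes, 9.50% were higher and 4.89% lower at that dose). CXCL2, a chemokine, was at −0.20 at the low dose and 2.25 on the high-dose array, CXCL3 at −0.20 and 3.89, and TNFAIP3, an inhibitor of NF-kB, at −0.39 and 1.84. NFKBIA, which holds NF-kB in the cytoplasm, rose at the low dose already (2825 and 1818, 0.64).

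Genes of the integrated stress response and of the endoplasmic reticulum behaved likewise. SESN2, sestrin 2, had 204 at the low dose and 751 in solvent (−1.88, the other probe set −1.76), and 852 at the high dose. DDIT3, the stress factor CHOP, had 451 and 1177 (−1.38), and 2066 at the high dose. ASNS, asparagine synthetase, had 803 and 1824 (−1.18), and 2018 at the high dose. PPP1R15A, the phosphatase subunit GADD34 that ends the stress response, had 228 and 1111 (−2.28), and 917 at the high dose. Not all targets of ATF4 went this way. Of 23 past the filter 6 fell (26.1%, against 7.46% of all genes) and 3 rose (13.0%, against 9.84%), with a median of 0.01. CEBPB, a partner of ATF4, rose with 5604 and 2923 (0.94). TRIB3, a pseudokinase of the same response, was at 0.01. At the high dose, against the same solvent array, 9 were higher and 0 lower (median 0.54), where 9.50% of all genes were higher and 4.89% lower. Chaperones gave few changes, with 3 of 18 lower (16.7%, against 7.46% of all genes) and 0 higher. The falls were DNAJB9, a cochaperone (667 and 1672, −1.33, 3 probe sets between −1.73 and −1.31), HERPUD1, a component of ER-associated degradation (2325 and 5600, −1.27, the other probe set −0.46), and DNAJC3 (−0.81). The chaperone HSPA5, BiP, was at −0.20.

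**Figure D4:**
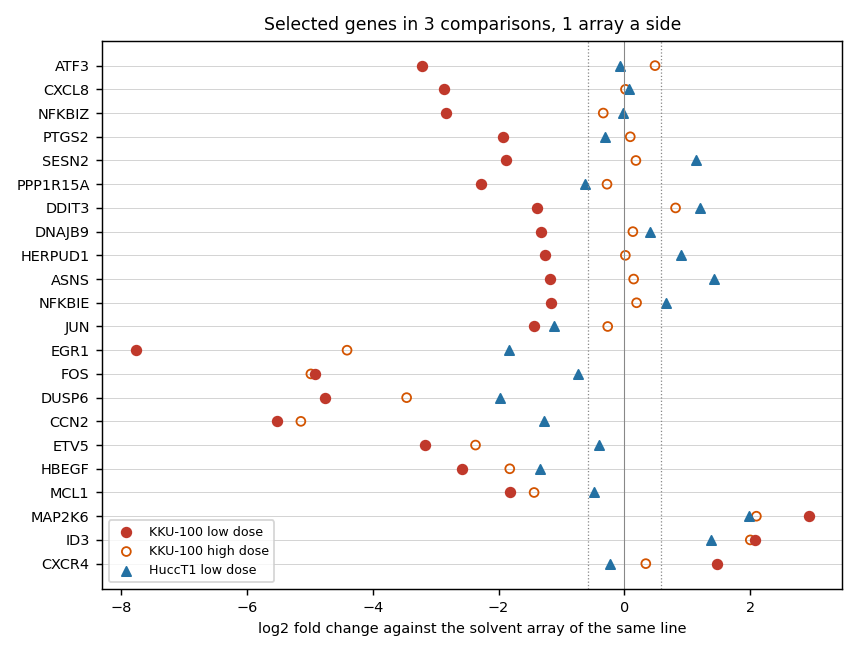
Log2 fold change against the solvent array of the same line (horizontal axis) for 22 genes in KKU-100 at the low dose (filled red), KKU-100 at the high dose (open orange) and HuccT1 at the low dose (blue triangles), 1 array a side; both KKU-100 comparisons share 1 solvent array, and the genes were chosen after their values were seen. ATF3 is at −3.23, 0.49 and −0.07, and EGR1 at −7.76, −4.41 and −1.83.

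Genes of cell death and metabolism supplied further falls. MCL1, a short-lived survival protein of the BCL2 family, had 1496 at the low dose and 5281 in solvent (−1.82), with 5 probe sets between −2.23 and −1.44. BCL2L11, which encodes the opposing protein BIM, had 168 and 492 (−1.55), although its 6 probe sets ran between −1.59 and −0.01, and PMAIP1, NOXA, had 1332 and 2539 (−0.93). With BIK (−0.66), these were the 4 falls among 14 family members (28.6%, against 7.46% of all genes), of which 0 rose, and the median was 0.07. TNFRSF10D, a decoy receptor of the death ligand TRAIL, had 178 and 1252 (−2.82), and TNFSF10, TRAIL itself, rose with 163 and 74.8 (1.12, 3 probe sets between 0.93 and 1.26). The related receptors TNFRSF10A, TNFRSF10B and TNFRSF10C were at −0.61, −0.55 and 0.29, and TNFRSF1A was at 0.74. Of 14 TNF receptors and ligands, 2 rose and 2 fell (14.3% each, where 9.84% of all genes rose and 7.46% fell). ARRDC4 and TXNIP, arrestin-domain proteins that limit glucose uptake, had 99.7 and 1830 (−4.20) and 208 and 833. IRS2, an adaptor of the insulin receptor, had 283 and 1070 (−1.92), whereas its paralog IRS1 rose with 246 and 85.7 (1.52, the other probe set 0.51). TIPARP, a target of the aryl hydrocarbon receptor, fell by 1.99 on the log2 scale. With CYP1A1 (−1.21), AHRR (−0.99) and CYP1B1 (−0.91) it made up 4 falls of 10 genes in that list (40.0%, against 7.46% of all genes).

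Single members stood out in other lists (over all genes, 7.46% fell and 9.84% rose). KLF2, a Kruppel-like factor, was at −1.77, and GADD45B, a stress sensor, at −1.73, but −0.45 on the highest of its 4 probe sets. OSGIN1, a target of NRF2, was at −1.24, and SLC7A11, the cystine transporter, at −1.29 (830 at the low dose and 2034 in solvent). KDM3A and PFKFB3, both induced by hypoxia, were at −1.19 and −1.18 among 3 falls and 1 rise in 20 genes of hypoxia and glycolysis. BCL6, a transcriptional repressor, was at −1.28, but −0.33 on the highest of its 3 probe sets. FOXO3, a factor restrained by insulin signalling, was at −1.01, with 4 probe sets between −1.28 and −0.27. In their list of 12 FOXO targets 4 fell and 3 rose. In the circadian clock list of 11 genes DBP (1.70) and PER3 (1.05) rose and the cryptochromes CRY1 (−1.01) and CRY2 (−0.81) fell. The 17 aminoacyl-tRNA synthetases had 3 rises, led by AARS1 (0.76), and 0 falls, and the 14 cholesterol synthesis genes 1 rise and 1 fall. TENT5C, a poly(A) polymerase, read 23.1 at the low dose and 211 in solvent (−3.19, the other probe set −3.12). Its low-dose signal was below the median of that array. MXD1, an antagonist of MYC, read 81.3 and 654 (−3.01).

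Other lists had most of their members on the lower side. Of 18 autophagy genes 5 fell (27.8%, against 7.46% of all genes) and 1 rose (5.56%, against 9.84%), with a median of −0.27. ULK1, the initiating kinase, was at 106 and 256 (−1.27), MAP1LC3B at 1797 and 3433 (−0.93), and TFEB, a regulator of lysosomal genes, was higher at 121 and 46.8 (1.37). All 8 metallothionein genes and regulators past the filter were below 0, between −1.22 and −0.14, where 5381 of all 12729 genes were below 0. Of the 8, 3 fell (37.5%, against 7.46% of all genes).

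The inhibitors of differentiation split. ID2, which blocks helix-loop-helix factors, had 15.5 at the low dose and 170 in solvent (−3.45), the low-dose signal being below the median of that array, and 44.4 at the high dose. Its relatives rose, ID3 with 377 and 89.0 (2.08) and ID1 with 2196 and 1136 (0.95). SKI, a repressor of SMAD signalling, had 931 and 2330 (−1.32). Of 14 Notch genes 5 fell (35.7%, against 7.46% of all genes) and 2 rose (14.3%, against 9.84%), with a median of −0.21. HES1, the classical target, was at 636 and 1333 (−1.07), MAML3 at −1.61 and NOTCH1 at −1.15, where the other NOTCH1 probe set was at −0.07. In the Wnt list the receptor FZD7 fell (163 and 435, −1.41), the inhibitor DKK1 rose (2274 and 1052, 1.11), and 2 of 14 moved in each direction.

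Rises were smaller than falls, with none past 8-fold. MAP2K6, the kinase that activates p38, had the largest, with 296 at the low dose and 38.9 in solvent (2.93), and 166 at the high dose. Its other probe set lay below the filter and was at 0.16. RHOV, a small GTPase, had 691 and 123 (2.48), LINC00473, a long non-coding RNA, 510 and 91.6 (2.48), and NEURL1B, a ubiquitin ligase of the Notch pathway, 267 and 60.6 (2.14). EID3 had 304 and 78.1 (1.96). Each of these 5 rests on 1 probe set past the filter. Among genes whose probe sets all rose, FZD2, a Wnt receptor, led with 699 and 175, the other probe set being at 1.10, followed by MAP7, a microtubule-associated protein, with 1125 and 319 (1.82) and by GYG2, glycogenin 2, with 149 and 43.5 (1.77). RERG, a growth-inhibiting RAS relative, had 1431 and 420 (1.77, the other probe set 1.84), IL15 had 1083 and 360 (1.59), and IER5L, KMO (21.0 in solvent, below the median of that array), DIRAS2, DUBR, CXXC5 and KCNE4 rose by between 1.41 and 1.70 on the log2 scale. CXCR4, the receptor of the chemokine CXCL12, had 1489 at the low dose and 537 in solvent (1.47), and its 3 probe sets lay between 1.45 and 1.55. On the high-dose array CXCR4 read 679.

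Of 20 DNA replication genes 8 rose (40.0%, where 9.84% of all genes did) and 0 fell, with a median of 0.44. Of the rises, MCM2, MCM3, MCM6 and RFC4 lay close to the cutoff, between 0.61 and 0.63. At the high dose 3 of the 20 were higher and 0 lower (over all genes, 9.50% and 4.89%). In HuccT1 at the low dose 0 were higher and 2 lower (over all genes, 3.08% and 3.12%). PRIM1, the primase subunit, had 457 at the low dose and 158 in solvent (1.53), UHRF1, which carries DNA methylation through replication, had 899 and 396 (1.19), GINS1 had 1599 and 914 (0.81) and MCM5, of the replicative helicase, had 488 and 293 (0.74), while PCNA (0.04) and RRM2 (−0.03) were within 1.5-fold. Of 21 mitosis genes 3 rose (14.3%, near the share of all genes) and 0 fell, with a median of 0.36, led by PLK1 (92.3 and 46.1, 1.00) and BUB1B (1111 and 560, 0.99), and MKI67 was at −0.43. Of 14 cyclins, kinases and inhibitors of the first gap phase 3 fell (21.4%, against 7.46% of all genes) and 2 rose (14.3%, against 9.84%), with a median of −0.05. CCNE2, cyclin E2, fell with 230 and 623 (−1.44, both probe sets alike), CDKN1A, p21, had 2834 and 4581 (−0.69), and CCND1 (−0.35), CCNE1 (−0.08) and CDKN1B (−0.15) were within 1.5-fold. Mitochondrial ribosomal proteins were above 0 for 71 of 76 genes, where 7348 of all 12729 genes were. Of the 76, 10 were higher (13.2%, near the 9.84% of all genes) and 0 lower, with a median of 0.26. The 72 cytosolic ribosomal proteins had 2 higher and 2 lower (median 0.03), and the 80 respiratory chain and ATP synthase subunits 0 and 0 (median 0.04).

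Of the interferon-stimulated genes 6 of 27 rose (22.2%, against 9.84% of all genes) and 1 fell (3.70%, against 7.46%), with a median of 0.16. PSMB9 and PSMB8, subunits of the immunoproteasome, had 2197 and 1104 (0.99) and 1962 and 1206 (0.70), and CXCL10, an interferon-induced chemokine, had 155 and 79.7 (0.96). ISG15, with 16382 at the low dose and 15409 in solvent, was already bright in solvent. HSPB1, a small heat shock protein, rose with 2257 and 769 (1.55), and DNAJB1, a cochaperone of HSP70, fell with 1050 and 2675 (−1.35, the other probe set −1.70). Among 412 long non-coding RNAs named LINC or antisense, 43 were higher (10.4%, near the 9.84% of all genes) and 16 lower (3.88%, against 7.46%). Among 328 zinc finger genes named ZNF, 36 were higher (11.0%) and 49 lower (14.9%).

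Agreement between probe sets was checked in the 6070 genes with 2 or more past the filter. All probe sets lay on the same side of 0 in 3840 of them (63.3%). In 183 genes (3.01%) every probe set was past 1.5-fold higher and in 211 (3.48%) every one was past it lower, and in 49 genes at least 1 was past it in each direction. Where the brightest probe set rose (577 genes), the second brightest had the same sign in 503 (87.2%), was past 1.5-fold the same way in 249 (43.2%) and past it the opposite way in 7. Where the brightest fell (522 genes), these numbers were 458 (87.7%), 288 (55.2%) and 9. Of 312 genes whose brightest probe set was past 2-fold, 287 (92.0%) had the same sign on the second. Across the 6070 genes, which are not replicates, the log2 fold changes of both probe sets had a Pearson r of 0.674 and a Spearman rho of 0.624, and they share the same 2 arrays.

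**Figure D5:**
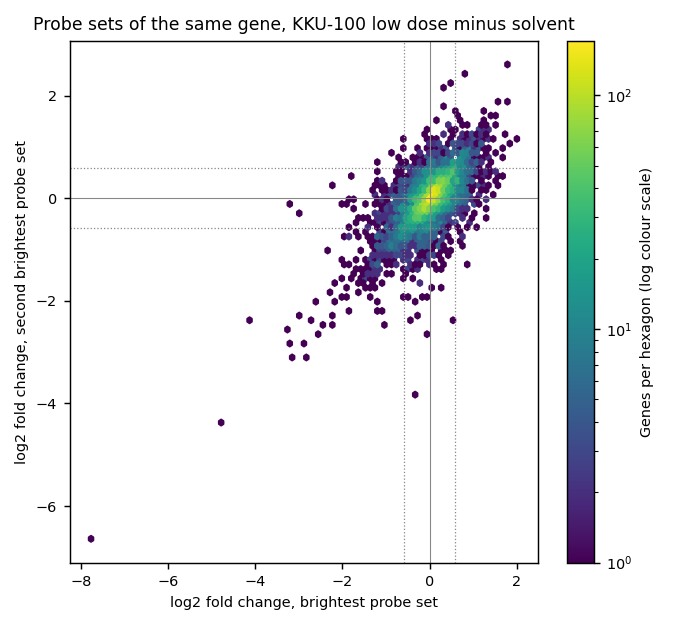
Log2 fold change (low dose minus solvent) of the second brightest (vertical axis) against the brightest probe set (horizontal axis) of the 6070 genes with at least 2 past the level filter in KKU-100, coloured by the number of genes per hexagon on a logarithmic scale, with dotted lines at 1.5-fold. The points lie along the diagonal with a Pearson r of 0.674.

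Genes whose probe sets opposed each other were few but wide apart. BICD1, a dynein adaptor, had 6 probe sets from −2.68 (18.1 at the low dose and 116 in solvent) to 0.83 (39.4 and 22.2), with the brightest at 0.20. LSM8, of the spliceosome, ran from −1.80 to 1.17 over 3 probe sets, ARMC8 from −0.95 to 1.75 over 6, LIFR, the LIF receptor, from −1.69 to 0.61 over 4, WSB1 from −0.68 to 1.60 over 4 and HELQ, a helicase, from −1.20 to 0.95 over 4. Such probe sets can detect different transcripts of a gene, and which transcript each one reads was not determined here. For SFPQ, an RNA-binding protein, all 4 probe sets were lower but between −2.07 and −0.82.

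The genes that moved differed a little in structure. Those that fell had a median length in the genome of 39.6 kb and those that rose of 27.3 kb, with 28.1 kb over all genes, and the median GC content of their promoters was 64.8%, 66.0% and 64.8%. Among genes that fell 2.32% were annotated as non-coding, among those that rose 6.30%, and over all genes 5.48%.

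On these arrays the log2 fold changes at the low dose were spread less widely in HuccT1 than in KKU-100. Over the probe sets past the KKU-100 filter, the SD of the log2 fold change was 0.494 in KKU-100 and 0.322 in HuccT1 at the low dose. Of 12026 genes measured in both lines, 371 were higher (3.08%) and 375 lower (3.12%) in HuccT1. Of the genes higher in KKU-100, 132 of 1132 (11.7%) were also higher in HuccT1, which is 35.6% of the HuccT1 genes, and 29 were lower there. Of the genes lower in KKU-100, 108 of 870 (12.4%) were also lower in HuccT1, 28.8% of the genes lower there, and 33 were higher. Of the ERK-induced genes 12 of 17 were lower in KKU-100 (median −0.93) and 10 of 17 in HuccT1 (median −0.84). EGR1 was at −7.76 in KKU-100 and −1.83 in HuccT1, where its signals were 107 at the low dose and 380 in solvent. CCN2 was at −5.52 in KKU-100 and −1.28 in HuccT1, with 115 and 278 there, and DUSP6 at −4.76 and −1.99, with 458 and 1812 in HuccT1. The solvent signals of EGR1 and CCN2 were thus far higher in KKU-100 than in HuccT1. MAP2K6 rose in both lines, by 2.93 in KKU-100 and 1.97 in HuccT1, as did ID3, by 2.08 and 1.38, IL15, by 1.59 and 1.44, and TNFSF10, by 1.12 and 1.40. Whether the lines differ was not tested, as each contrast has 1 array a side.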

How the data were processed

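Total RNA of 6 cultures was hybridized by the authors to Affymetrix expression arrays, 1 array per condition. The deposited table holds a linear signal intensity for each probe set. The submitters' processing notes name MAS5, with no version, as the tool the authors used, while the published methods name log2 normalization in GeneSpring and a cutoff of 1.5-fold. How the arrays were scaled to each other is not given in the sources used here. MAS5 subtracts mismatch and background signal, which can make log2 differences of dim probe sets noisy, and no detection calls were used. Whether that holds for this table was not tested, as no condition has a replicate. Of the 5462 dimmest probe sets past the filter, 5.40% were higher and 7.21% lower by over 1.5-fold. Among the 5462 brightest these shares were 5.20% and 5.95%, and over all 27307 they were 8.41% and 9.05%. The table holds no read depth.

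Groups came from the sample labels. The 62 control probe sets were set aside and log2 of each signal was taken with no added scaling. Symbols are those of the platform annotation, updated through RefSeq gene IDs: 41091 probe sets carry 1 symbol, 1801 several and 11721 none, and only those with 1 symbol name a gene. The level filter was the median (50th percentile) of the mean log2 signal over the 3 KKU-100 arrays. A gene is represented by its brightest probe set past it. With 1 array a side there is no test, and a call means past 1.5-fold. Python 3.11.15 with numpy 2.4.6, pandas 2.3.3, scipy 1.17.1, statsmodels 0.14.6 and matplotlib 3.10.9 were used, and the counting steps were tested on simulated data.

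The 43 gene lists and 7 families defined by symbol, like the members themselves, were chosen with earlier results of these data known, so no list is independent evidence. Named by rule were the 12 largest rises and falls on agreeing probe sets, the 6 largest on 1 probe set, up to 4 called members of each list with the largest change, the 6 genes with the most opposed probe sets, and the genes the paper followed up. Other genes named in the text were chosen after their values were seen. AREG and genes of the Y chromosome were not analysed here, and genes of the lists without a probe set annotated to them alone were not analysed here. Alternatives were quantile normalization of the 6 arrays, centring, a loess on signal (span 0.3), a floor at the 20th percentile, a pseudocount of 16, no filter, a filter at the 60th percentile, filters on the arrays compared, dropping probe sets able to match more than 1 transcript, the median over a gene's probe sets, and a 2-fold cutoff.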

Additional observations from a re-analysis of the deposited data

Results flagged for a closer look

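Of 161 named genes past the level filter in both lines, 11 moved past 1.5-fold in opposite directions in the low-dose comparisons of KKU-100 and HuccT1, each against the solvent array of its own line. Over all 12026 genes measured in both lines, 29 of 1132 that rose in KKU-100 (2.56%) fell in HuccT1. Of 870 that fell in KKU-100, 33 (3.79%) rose there. These shares are near the 3.12% lower and 3.08% higher of all genes in HuccT1. The naming rules favour genes with large changes in KKU-100. Whether the lines differ was not tested, since each contrast has 1 array a side. Of these 11 genes 8 were lower in KKU-100 and higher in HuccT1. SESN2 (−1.88 in KKU-100 and 1.13 in HuccT1), DDIT3 (−1.38 and 1.20) and ASNS (−1.18 and 1.43) belong to the integrated stress response, and SLC7A11 (−1.29 and 1.04) is also induced by it. HERPUD1, of protein degradation at the endoplasmic reticulum, was at −1.27 in KKU-100 and 0.91 in HuccT1. ID2, the inhibitor of differentiation, was at −3.45 in KKU-100, with a low-dose signal below the median of that array, and 1.02 in HuccT1. NFKBIE, an inhibitor of NF-kB, was at −1.18 and 0.66, and ITGB8, an integrin subunit, at −0.59 and 0.99.

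The other 3 genes were higher in KKU-100 and lower in HuccT1. DKK1, the Wnt inhibitor, was at 1.11 in KKU-100 and −0.63 in HuccT1, FJX1, a target of YAP1, at 1.24 and −0.62, and RRS1, a ribosome assembly factor, at 0.66 and −0.76. Of the 11 genes, 5 lie within 0.1 of the 1.5-fold cutoff (log2 0.58) in a line, RRS1 and ITGB8 in KKU-100 and DKK1, FJX1 and NFKBIE in HuccT1.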

How the results depend on the processing

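With 1 array per condition, no value here has a replicate error. Dim probe sets and a table with no detection calls limit the depth of falls such as that of ID2, whose low-dose signal lies below the array median. No paired analysis was possible because each condition has 1 array and the labels carry no replicate numbers.

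Of 126 alternative counts for probe sets, genes, agreeing genes and list members, 114 were within 1.5 times the reported value. At a 2-fold cutoff 510 probe sets were higher and 861 lower, 299 genes higher and 351 lower, 33 agreeing genes higher and 69 lower, and 19 list members higher and 67 lower. Without the probe sets that can match several transcripts, 1529 probe sets were higher and 1581 lower, and 91 agreeing genes higher and 113 lower, over fewer genes (9632). With the median over a gene's probe sets, 6 named genes turned sign. Of these, 3 had been called, HELQ (to 0.72), KLF12 (to 0.095) and PSPC1 (to −0.10), and ARMC8 (0.56), BICD1 (−0.52) and YAP1 (−0.07) had been within 1.5-fold. By size, 8 named genes moved under the median, among them EGR1 (−6.82), MAFF (−3.23), BCL2L11 (−0.61), TGFA (−0.28) and MAP7 (1.05). Of the 2202 genes called, 2163 kept the call under quantile normalization, 2173 under centring, 2038 under the loess, 1901 with a pseudocount of 16, 1789 under the median over probe sets (23 turned sign, 2 of them to an opposite call) and 650 at 2-fold. Without the probe sets that can match several transcripts, 1615 of 1751 did, and 38 turned sign, 5 of them to an opposite call. The number of ERK feedback genes that fell ran from 8 to 12, and that of immediate early genes from 12 to 16.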
